A study of Mus musculus with 36 samples.

Results

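The genes described here are 10 surface receptors of macrophages, 6 scavenger receptors and endocytic receptors (Msr1, Mrc1, Cd163, Stab1, Cd36, Scarb1) and 4 C-type lectins (Clec7a, Clec4n, Clec4d, Clec4e). They were chosen by name, as family members, from 30205 genes, and the estimated counts and TPM values (transcript abundance scaled per length and library) of each gene were summed over its annotated transcripts in all 36 RNA-seq libraries. The study cultured primary bone cells from wild-type (WT) mice and from Mir324-null mice, which lack a microRNA gene, with 6 libraries in each of 6 groups and mice 20 weeks old. In both genotypes, bone marrow macrophages (BMM) were grown out of flushed marrow with M-CSF, the macrophage growth factor, and then had 30 ng/mL of it for 5 days. The osteoclast cultures (OC) came from the same kind of macrophage and spent those 5 days in 30 ng/mL M-CSF plus 50 ng/mL RANK-L, the cytokine that induces osteoclasts. The osteoblast cultures (OB) grew out of collagenase-treated bone chips and were held for 18 days in medium with β-glycerophosphate and ascorbic acid. The labels do not say how the allele was made, whether the controls were littermates, or whether the 6 libraries of a group came from separate mice, so p-values measure the spread between these libraries, which may be technical.

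Scavenger receptors bind modified lipoproteins, dying cells and microbial surfaces and carry them into the cell. C-type lectin receptors recognise sugars and glycolipids of fungi and mycobacteria and signal, directly or through the adaptor chain Fcer1g, to the kinase SYK and the adaptor CARD9. Osteoclasts form when macrophage precursors fuse under RANK-L, a change in which many macrophage surface receptors are known to decline.

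The mature products of the missing gene are shown first, because they are what the null cells lack and because their seeds (bases 2 to 8, in capitals) fix which sites could pair with them. Both sequences are from RefSeq (GRCm38.p6), on the plus strand, at chr11:70012060-70012082 for the 5p arm and chr11:70012095-70012114 for the 3p arm.
miR-324-5p: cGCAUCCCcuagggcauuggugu
miR-324-3p: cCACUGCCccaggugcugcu
The DNA words that pair with the seeds, GGGATGC for the 5p arm and GGCAGTG for the 3p arm, were searched on the sense strand in the longest protein-coding 3′ UTR of each gene. GGGATGC occurred in 7.07% and GGCAGTG in 12.4% of 19952 UTRs. Among the 10 receptors the only match was 1 GGGATGC in Clec7a, at base 146 of its UTR, within chr6:129462878-129462906 on the minus strand (GRCm38), where it is printed in capitals.
Clec7a 3′ UTR site: gaaaaaatgctGGGATGCtaagagacttt
The other 9 receptors had neither word in that window, and a match describes letters, not a working site.

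Promoter windows (250 bases before to 50 after the start, RefSeq GRCm38.p6) are shown for 3 genes. Clec4d and Clec4e are neighbours whose genotype differences below had the same direction in each culture, though not the same size. Mrc1 went the other way in BMM. The table used had windows for 7 of the 10 genes, with none for Msr1, Scarb1 and Clec4n. Capitals mark the PU.1 core (GAGGAA on either strand, so also TTCCTC) and, in Clec4e, a C/EBP word (TTNNGCAA). The Clec4d window is chr6:123261857-123262156 on the plus strand, the Clec4e window chr6:123289822-123290121 on the minus strand and the Mrc1 window chr2:14229164-14229463 on the plus strand.
Clec4d promoter: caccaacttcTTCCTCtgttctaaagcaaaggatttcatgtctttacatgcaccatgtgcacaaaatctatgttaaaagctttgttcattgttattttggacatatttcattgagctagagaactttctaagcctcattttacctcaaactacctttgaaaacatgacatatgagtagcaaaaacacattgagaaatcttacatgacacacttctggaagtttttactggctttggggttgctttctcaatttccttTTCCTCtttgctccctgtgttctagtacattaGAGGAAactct
Clec4e promoter: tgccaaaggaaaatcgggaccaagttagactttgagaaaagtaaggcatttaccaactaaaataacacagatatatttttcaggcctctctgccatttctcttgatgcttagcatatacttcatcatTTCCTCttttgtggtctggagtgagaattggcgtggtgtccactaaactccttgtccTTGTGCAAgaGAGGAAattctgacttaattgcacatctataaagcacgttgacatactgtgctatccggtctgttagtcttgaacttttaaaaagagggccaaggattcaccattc
Mrc1 promoter: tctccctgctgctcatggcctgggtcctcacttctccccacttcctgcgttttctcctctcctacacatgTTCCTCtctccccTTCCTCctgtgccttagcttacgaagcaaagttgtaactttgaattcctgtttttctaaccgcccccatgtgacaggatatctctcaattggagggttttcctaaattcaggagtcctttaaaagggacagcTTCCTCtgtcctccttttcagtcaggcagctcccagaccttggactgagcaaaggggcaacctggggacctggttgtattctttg
PU.1 is a master factor of the macrophage lineage, and its core word was found 3 times in the Clec4d and Mrc1 windows, 2 times in that of Clec4e and once in those of Clec7a and Stab1. Of 32851 promoter windows, 28.3% held the word. The C/EBP word of Clec4e does not overlap its PU.1 words and was in 10.8% of windows. The AP-1 word TGANTCA (7.81% of windows) and the MAF word TGCTGAC (4.67%) were in none of the 7 windows. Clec4d and Clec4e, which rose in null BMM, and Mrc1, which fell there, all held the PU.1 word. The Cd36 and Cd163 windows did not hold it. The part of this word in the receptor levels was not tested.

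Between 13985009 and 26100581 estimated counts per library were assigned to genes. Defining markers were read before any receptor, because the null OC libraries went against their label. The summed level of 9 osteoclast markers lay between 28800 and 31300 CPM (library-scaled counts, not corrected for length) in WT OC. In null OC it lay between 347 and 719 CPM, with Calcr at 0 in every library. That was above the 102 to 138 CPM of WT BMM and the 244 to 321 CPM of null BMM, with no overlap. Mmp9 held most of the null BMM sum (mean 185.7 CPM). Ctsk averaged 80.9 CPM (36.7 to 221) in null OC against 3.98 CPM (2.68 to 5.5) in null BMM. The other markers also had higher means in null OC than in null BMM, Atp6v0d2 by little (40.69 against 40.55 CPM), except Calcr. All 9 macrophage markers were found in every group. Their sums were 40500 to 52100 CPM in WT BMM, 52900 to 60900 in null BMM, 10200 to 12600 in WT OC, 49000 to 61200 in null OC, 12800 to 16200 in WT OB and 6920 to 10100 in null OB. Lyz2 held most of each sum, with means from 6357 CPM in null OB to 42150 CPM in null BMM. From WT to null BMM the means of Csf1r, Adgre1, Lyz2 and Cd14 rose, and those of Itgam, Fcgr1, Mertk, C1qa and C1qb fell. The osteoblast list was at 54600 to 78400 CPM in WT OB and 97200 to 116000 CPM in null OB, and at no more than 268 CPM elsewhere. Osteoblast cultures therefore also held macrophage and osteoclast transcripts, the osteoclast list being at 3970 to 5060 CPM in WT OB and 4860 to 7390 CPM in null OB. Neutrophil markers were low in all groups (at most 20.8 CPM in sum), with Elane and Retnlg at 0 in both BMM groups. The endothelial sum, mostly Pecam1, which macrophages also express, was 79.8 to 309 CPM. The 6 markers of dendritic cells reached at most 20.7 CPM and the 6 of adipocytes at most 36 CPM in sum. In these bulk libraries fewer cells of a type and less RNA per cell cannot be told apart.

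The 10 receptors together took 4920 ± 158 CPM (SD, n = 6) in WT BMM, 4196 ± 185 in null BMM, 1236 ± 53.1 in WT OC, 4241 ± 222 in null OC, 1308 ± 131 in WT OB and 922 ± 168 in null OB. The WT OC range (1161 to 1296 CPM) overlapped that of WT OB (1148 to 1464 CPM) and lay above that of null OB (702.8 to 1121 CPM). The null OC range (3906 to 4486 CPM) overlapped that of null BMM (3834 to 4352 CPM) and lay below that of WT BMM (4756 to 5174 CPM).

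With RANK-L in WT cells, all 10 receptors fell. Their median log2 change from BMM to OC was −2.08, against −0.00 over the 12661 genes tested, of which 30.1% were lower and 30.4% higher at an adjusted p under 0.05 (edgeR's quasi-likelihood test with Benjamini-Hochberg adjustment, the test used throughout). In null cells the same step left 8 of 10 receptors without a call, and 2 were higher, Msr1 and Scarb1, both by small amounts, where 6.78% of all genes were higher and 6.07% lower. The members' median in null cells was 0.03. Both of these calls were lost with no filter or with limma-voom, and when null BMM replicate 2, 3 or 4 or null OC replicate 2 or 3 was left out. With DESeq2, Clec4d (−0.40) and Clec4e (−0.28) were called lower as well. The test of the difference between the genotypes in this step called 9 of 10 receptors, all in the direction of a less negative change in null cells, beside 25.3% of all genes in that direction and 26.1% in the other. Clec4d was the receptor without a call (difference 0.40 ± 0.22 SE, adjusted p = 0.137 by edgeR). These comparisons move with the osteoclast and macrophage marker sums above, and the part of cell makeup in them was not tested. They share the BMM libraries with the genotype comparison in BMM, so their values are set side by side below and not counted as separate support.

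**Figure D1:**
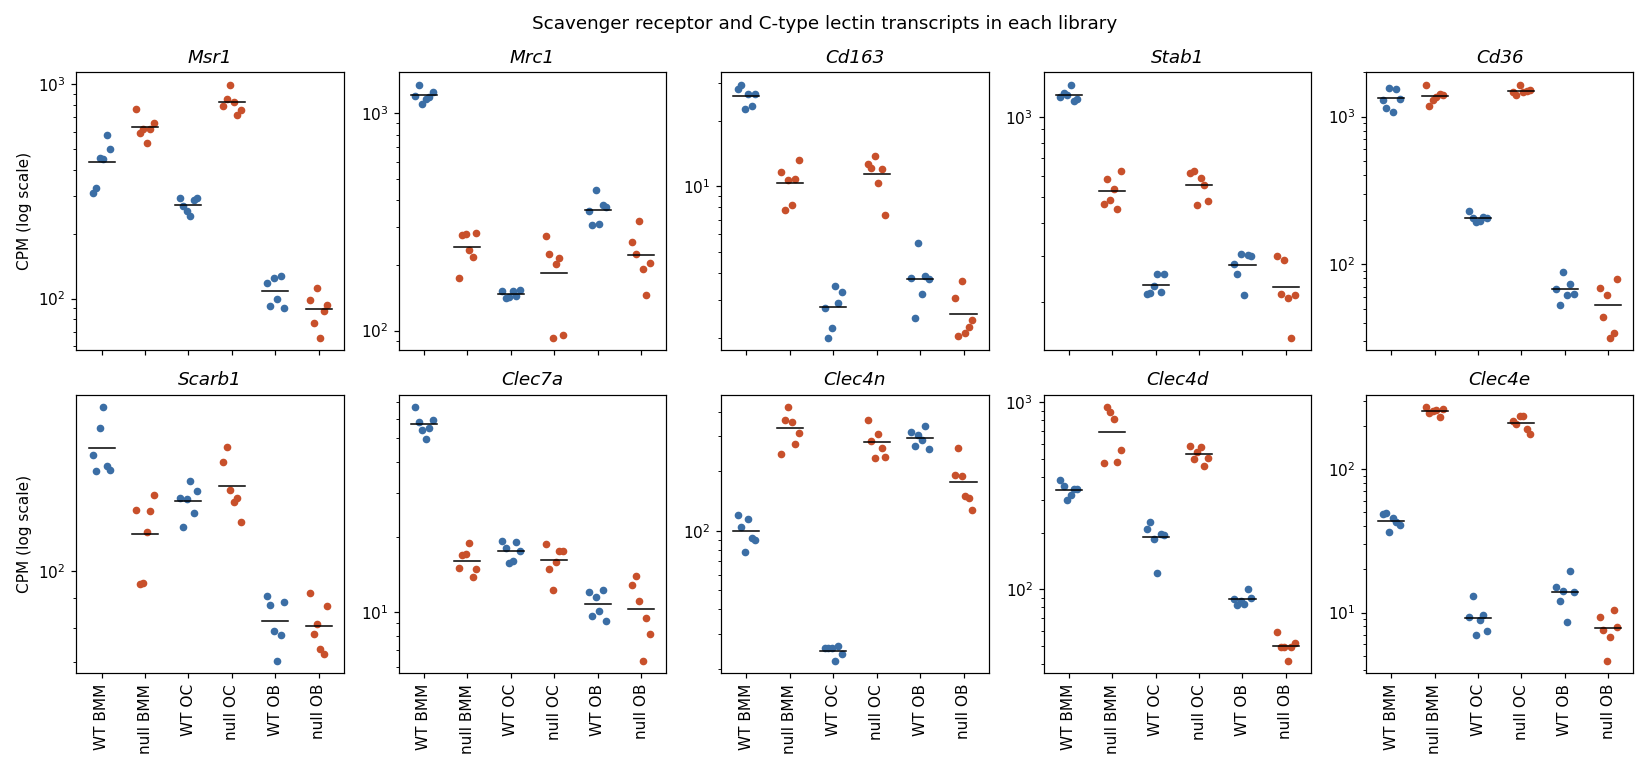
Level of each receptor in CPM (log axis) in every library, by group, with WT in blue and null in orange; points are single libraries and black lines group means of 6. WT OC lies below WT BMM without overlap for all 10 genes, as for 27.2% of all genes tested, and null OC overlaps null BMM for all 10, where 1.38% of all genes lie above and 0.924% below without overlap.

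Genotype in BMM split the receptors. Of 10, 4 were higher in null (Msr1, Clec4n, Clec4d, Clec4e) and 5 lower (Mrc1, Cd163, Stab1, Scarb1, Clec7a), beside 27.0% of all genes higher and 25.4% lower. In OC, 7 were higher in null and 0 lower, beside 32.4% and 33.1% of all genes. The marker sums moved with this comparison, from WT to null, the osteoclast list from 28800 to 31300 CPM down to 347 to 719 CPM and the macrophage list from 10200 to 12600 CPM up to 49000 to 61200 CPM, and their part in it was not tested. In OB, 0 were higher and 5 lower (Mrc1, Cd163, Clec4n, Clec4d, Clec4e), beside 15.5% and 16.9%. The members' median log2 differences were −0.20, 1.48 and −0.46 in BMM, OC and OB, and those of all genes 0.02, −0.03 and 0.00. The test of the difference between OB and BMM in the genotype effect called 9 of 10 receptors, 5 with a higher value in OB and 4 with a lower one, beside 22.2% and 24.6% of all genes. Of these, Stab1 (0.93) fell to 0.23 and lost its call with the average-length offset (adjusted p = 0.559 by edgeR), and Cd163 (0.79) fell to 0.41 and lost its call with the length and GC offset (adjusted p = 0.134).

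**Figure D2:**
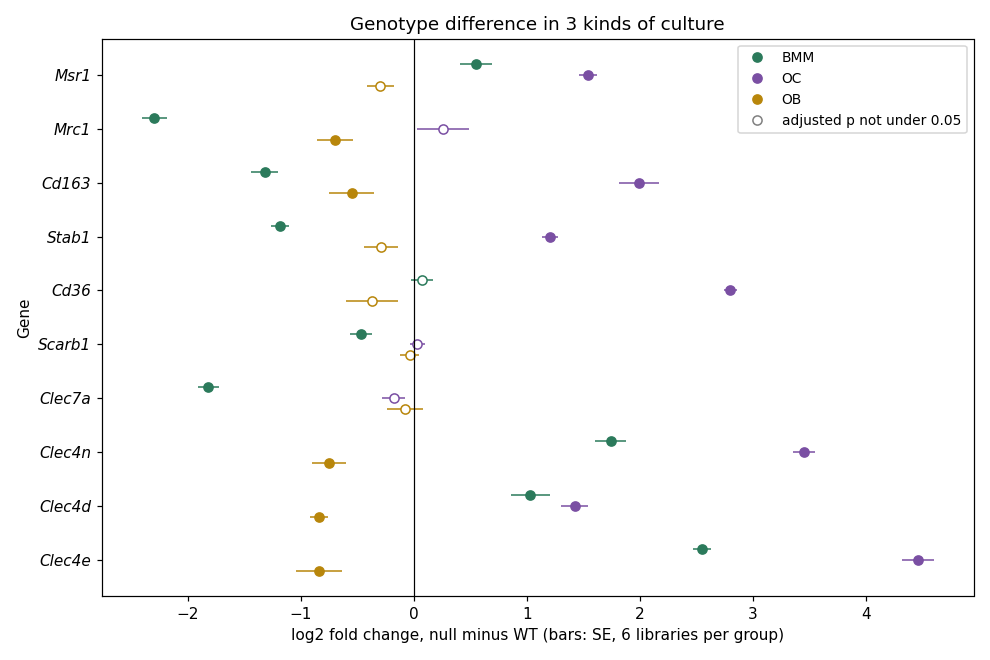
Genotype difference of each receptor in BMM, OC and OB as a log2 fold change (null minus WT; bars are SE, 6 libraries per group; open points have an adjusted p of 0.05 or more). The 3 Clec4 genes lie to the right of 0 in BMM and OC and to the left in OB, whereas Mrc1, Cd163, Stab1 and Clec7a lie to the left in BMM.

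Msr1, the class A receptor for modified low-density lipoprotein, lies at chr8:39581685-39642673 on the minus strand (GRCm38, as all gene positions here). Its lowest, median and highest levels were 309.9, 450.3 and 579 CPM in WT BMM and 529, 619.7 and 769 CPM in null BMM. The groups overlapped, with 5 of 6 null libraries above every WT library, and the log2 difference was 0.55 ± 0.14 (SE, adjusted p = 0.00379 by edgeR). In OC the 6 null libraries (722, 807 and 997 CPM) were all above the WT libraries (244, 278 and 296 CPM), by 1.54 ± 0.08. In OB the levels were 90.7, 109 and 127 CPM in WT and 65.6, 90.2 and 113 CPM in null, and the difference of −0.30 missed the threshold (adjusted p = 0.0769 by edgeR). RANK-L in WT cells went with a change of −0.62 ± 0.12 and in null cells with one of 0.38 ± 0.12 (adjusted p = 0.0356 by edgeR, and 0.0585 with no filter on low counts). Msr1 was thus the receptor of the scavenger group that rose with the null genotype in both myeloid cultures.

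Mrc1, the mannose receptor, which clears glycoproteins and is a marker of alternatively activated macrophages, lies at chr2:14229392-14332057 on the plus strand. WT BMM libraries held 1109, 1197 and 1359 CPM and null BMM libraries 174, 255 and 281 CPM as lowest, median and highest. No library of one genotype reached the other, and the difference was −2.30 ± 0.11, a 4.94-fold lower level in null (adjusted p = 7.43e-11 by edgeR). After RANK-L the WT level was 141, 148 and 153 CPM, a change of −2.99 ± 0.20. In null OC the 6 libraries split, 4 at 203 to 274 CPM and replicates 3 and 6 at 92.7 and 95.1 CPM, so the genotype groups overlapped there and the difference of 0.26 ± 0.23 had an adjusted p of 0.324 by edgeR. In OB, WT libraries had 306, 363 and 443 CPM and null libraries 145, 214 and 319.9 CPM, a difference of −0.70 ± 0.16 (adjusted p = 0.00574 by edgeR). Mrc1 was therefore highest in WT BMM, whose range met that of no other group, and next in WT OB, whose range met that of null OB.

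Cd163, the haptoglobin-haemoglobin receptor of tissue macrophages, lies at chr6:124304656-124330527 on the plus strand and was the least abundant receptor. Its levels were 22.7, 26.5 and 29.4 CPM in WT BMM and 7.76, 10.8 and 13.2 CPM in null BMM. The ranges were apart, by −1.32 ± 0.12 on the log2 scale (adjusted p = 2.72e-07 by edgeR). In OC the order of the genotypes turned over, with 2.00, 2.81 and 3.48 CPM in WT and 7.34, 12.1 and 13.8 CPM in null, a difference of 1.99 ± 0.18. Null OC and null BMM overlapped, whereas WT cells lost 3.19 on the log2 scale with RANK-L. In OB, WT libraries held 2.46, 3.76 and 5.49 CPM and null libraries 2.05, 2.33 and 3.64 CPM, and the difference of −0.55 ± 0.20 was just past the threshold (adjusted p = 0.0473 by edgeR). That call was lost with RLE scaling, no filter, limma-voom or an offset for transcript length (adjusted p = 0.0529 to 0.0756), and when any of 9 of the 12 libraries was left out.

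Stab1, stabilin-1, which takes up acetylated lipoprotein and extracellular matrix fragments, lies at chr14:31139013-31168641 on the minus strand. WT BMM libraries had 1147, 1203 and 1328 CPM and null BMM libraries 449.6, 513 and 625 CPM. They did not overlap, and the difference was −1.19 ± 0.08 (adjusted p = 5.05e-09 by edgeR). With an offset for the average length of the transcripts present, it shrank to −0.52 and lost the call (adjusted p = 0.0528 by edgeR). The transcripts differ in length, from the full-length Stab1-201 of 7999 bases to the short Stab1-207 of 413 bases. Stab1-201 was at 133 to 166 TPM in WT BMM and 38.0 to 71.5 TPM in null BMM, with no overlap. Stab1-207 was estimated at 84.2 to 141 TPM in null BMM replicates 2, 3 and 4 and at 9.74 to 26.2 TPM in the other 3, against 2.58 to 38.5 TPM in WT. After RANK-L, Stab1 was at 215, 225 and 256 CPM in WT and 466, 571 and 629 CPM in null, without overlap and by 1.20 ± 0.07. In OB the levels were 214, 289 and 305 CPM in WT and 147, 214 and 298 CPM in null, a difference of −0.29 that missed the threshold (adjusted p = 0.178 by edgeR).

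**Figure D3:**
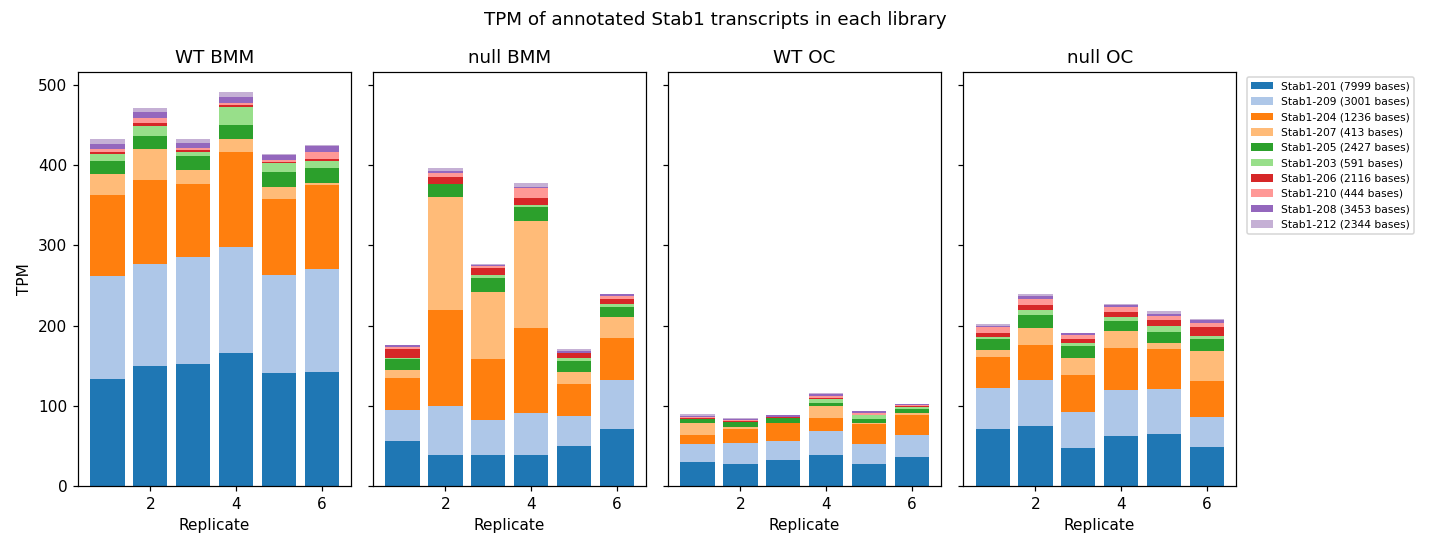
TPM of the annotated Stab1 transcripts (stacked bars, each colour 1 transcript with its length in bases) in the 6 libraries of WT BMM, null BMM, WT OC and null OC. Replicates 2, 3 and 4 of null BMM have a tall Stab1-207 block (84.2 to 141 TPM), and Stab1-201 at the base is lower in every null BMM library than in every WT BMM library.

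Cd36, the fatty acid translocase and receptor for oxidised lipoprotein, lies at chr5:17781690-17888801 on the minus strand. It was at 1074, 1308 and 1571 CPM in WT BMM and 1174, 1380 and 1647 CPM in null BMM, overlapping ranges with a difference of 0.07 (95% interval −0.12 to 0.26, adjusted p = 0.564 by edgeR). With RANK-L, WT cells fell to 194, 206 and 229.6 CPM, a change of −2.64 ± 0.09, and null cells stayed within the range of null BMM at 1391, 1477 and 1644 CPM. Every null OC library was above every WT OC library, a 6.98-fold difference (log2 2.80 ± 0.06, adjusted p = 8.27e-16 by edgeR). OB cultures held little Cd36, 52.5, 65.6 and 89.0 CPM in WT and 31.7, 52.6 and 79.2 CPM in null, and the difference of −0.37 was not called (adjusted p = 0.239 by edgeR). Of the 10 receptors, Cd36 thus had a null difference in OC and none past the threshold in BMM or OB.

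Scarb1, the high-density lipoprotein receptor for selective cholesterol uptake, lies at chr5:125277087-125341094 on the minus strand and varied least. Its levels were 148, 154 and 189.9 CPM in WT BMM and 94.9, 121 and 135 CPM in null BMM. The ranges were apart, by −0.47 ± 0.10 (adjusted p = 7.18e-04 by edgeR). In OC the genotypes overlapped at 119, 133 and 142 CPM in WT and 121, 135 and 162 CPM in null, with a difference of 0.03 (95% interval −0.10 to 0.17). In OB they overlapped at 70.3, 83.1 and 90.6 CPM in WT and 72.1, 79.6 and 91.7 CPM in null, with a difference of −0.04 (95% interval −0.19 to 0.11). RANK-L changed Scarb1 by −0.25 ± 0.09 in WT (adjusted p = 0.0129 by edgeR, 0.0827 with an offset for length and GC content) and by 0.26 ± 0.09 in null (adjusted p = 0.0438, 0.0663 with no filter). The direction of these small OC and OB genotype differences also turned with the length offsets, to −0.14 in OC (adjusted p = 0.0469 by edgeR) and 0.07 in OB (adjusted p = 0.525).

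Clec7a, Dectin-1, the receptor for fungal β-glucan, lies at chr6:129461591-129472779 on the minus strand and is typed as a polymorphic pseudogene in GENCODE M21. WT BMM libraries held 49.8, 56.7 and 66.6 CPM and null BMM libraries 13.8, 16.0 and 19.0 CPM. No library of one genotype reached the other, and the difference was −1.82 ± 0.09 (adjusted p = 1.60e-10 by edgeR). In OC (15.8, 17.8 and 19.3 CPM in WT, 12.3, 16.7 and 18.7 CPM in null) the genotypes overlapped, with a difference of −0.18 (adjusted p = 0.140 by edgeR). In OB (9.20, 10.8 and 12.2 CPM in WT, 6.37, 10.2 and 14.0 CPM in null) they overlapped as well, at −0.08 (95% interval −0.40 to 0.25). WT BMM was thus set apart from the other 5 groups, and the change with RANK-L was −1.65 ± 0.10 in WT and −0.00 in null (95% interval −0.19 to 0.19).

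Clec4n, Clec4d and Clec4e form a cluster on chromosome 6 and encode Dectin-2, MCL and Mincle, receptors for fungal mannans and mycobacterial glycolipids. Clec4n lies at chr6:123229843-123247021 on the plus strand, Clec4d at chr6:123262111-123275265 on the plus strand and Clec4e at chr6:123281789-123289870 on the minus strand. Each was higher in null than in WT in both myeloid cultures and lower in null in OB. Neutrophils also express these lectins. The summed neutrophil markers were 8.48 to 20.8 CPM in null BMM against 2.73 to 4.34 CPM in WT BMM, and 8.36 to 11.9 CPM in null OC against 4.08 to 4.89 CPM in WT OC, with Elane and Retnlg at 0 in all 4 groups. S100a8 held most of that difference, with means of 10.7 CPM in null BMM against 0.164 CPM in WT BMM and, in OC, of 6.95 (null) against 0.114 CPM (WT). Camp averaged 0.266 (null) against 0.0260 CPM (WT) in BMM, and in OC it averaged 0.210 CPM in null and was at 0 in every WT library. The part of neutrophil transcripts in the lectin differences was not tested.

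Clec4n was at 78.0, 98.2 and 119.8 CPM in WT BMM and 245, 334 and 421 CPM in null BMM. All null libraries were above all WT libraries, by 1.74 ± 0.14 (adjusted p = 7.68e-08 by edgeR). RANK-L brought WT cells down to 22.0, 25.5 and 26.0 CPM, while null cells had 234, 273 and 364 CPM, an 11-fold difference between the genotypes (log2 3.45 ± 0.10). Clec4n was the receptor that WT OB held at a higher level than WT BMM, with 259.5, 297 and 338 CPM, by 1.55 ± 0.15, the other 9 being lower in OB (41.9% of 14004 genes were higher and 35.9% lower). In null OB it was at 127, 169 and 262 CPM, lower than WT by 0.75 on the log2 scale (−0.75 ± 0.15, adjusted p = 0.00251 by edgeR), with 5 of 6 null libraries under the WT minimum.

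Clec4d was at 301, 344 and 386 CPM in WT BMM. In null BMM its 6 libraries split, 3 (replicates 2, 3 and 4) at 811 to 940.3 CPM and 3 at 476 to 555 CPM, and all 6 were above WT. The difference was 1.03 ± 0.17 (adjusted p = 1.93e-04 by edgeR). Those 3 libraries are also the ones with the tall Stab1-207 value, and whether they share a cause was not tested. With RANK-L the levels were 122, 197 and 229 CPM in WT and 456, 523 and 587 CPM in null, a difference of 1.42 ± 0.12. In OB, null libraries (41.6, 49.2 and 59.0 CPM) were all under WT libraries (82.8, 87.3 and 99.7 CPM), by −0.84 ± 0.08 (adjusted p = 5.41e-06 by edgeR), the one receptor whose OB groups did not overlap (8.89% of all genes were lower in null OB without overlap).

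Clec4e had the widest genotype difference of the 10 in BMM and in OC. WT BMM libraries had 36.3, 44.0 and 49.1 CPM and null BMM libraries 230.1, 257 and 270.1 CPM, a 5.85-fold rise (log2 2.55 ± 0.08, adjusted p = 5.81e-13 by edgeR). In OC the levels were 6.96, 9.12 and 13.1 CPM in WT and 176, 213 and 237 CPM in null, a 22-fold rise (log2 4.46 ± 0.14, adjusted p = 5.70e-14 by edgeR). No WT and null libraries overlapped in either culture. In OB the levels were 8.58, 14.0 and 19.4 CPM in WT and 4.63, 7.73 and 10.4 CPM in null, and the fall of −0.84 ± 0.20 (adjusted p = 0.00504 by edgeR) had 4 of 6 null libraries under the WT minimum. The macrophage marker sum was also lower in null OB (6920 to 10100 against 12800 to 16200 CPM), with no overlap. Lyz2 held most of it, with means of 11130 CPM in WT OB and 6357 CPM in null OB. The other markers had lower means in null OB too, Itgam by little (69.0 against 71.6 CPM), except Csf1r (662 against 633 CPM). The part of macrophage transcripts in the OB falls of Mrc1, Cd163 and the 3 Clec4 genes was not tested.

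**Figure D4:**
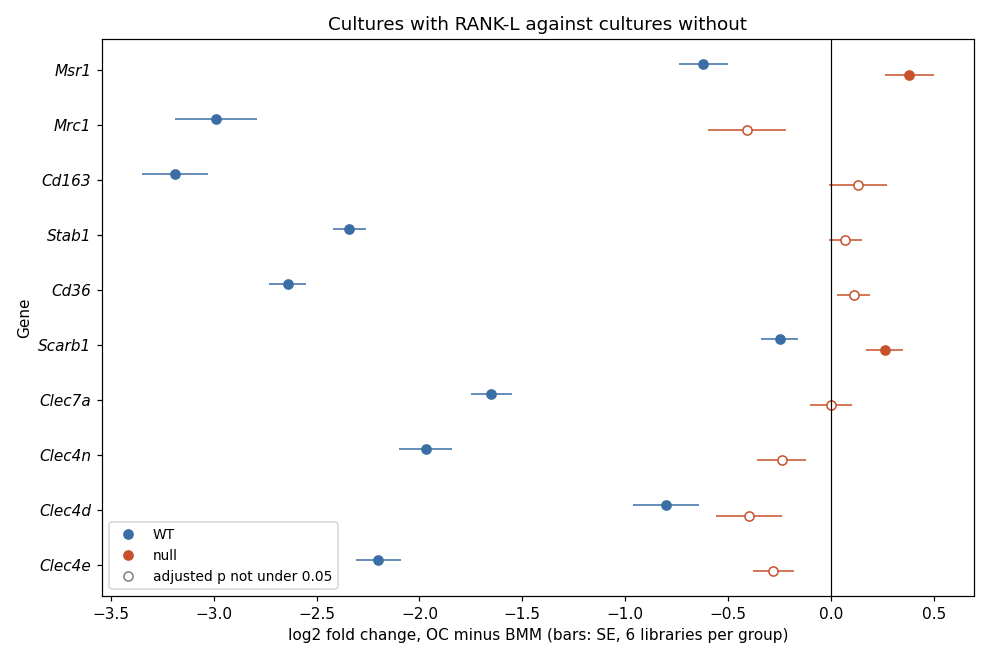
Change of each receptor from BMM to OC as a log2 fold change in WT (blue) and null (orange) cells (bars are SE, 6 libraries per group; open points have an adjusted p of 0.05 or more). All 10 WT points lie left of 0, from −3.19 for Cd163 to −0.25 for Scarb1, whereas the null points lie between −0.41 for Mrc1 and 0.38 for Msr1.

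Levels of different receptors were compared per length, in TPM. In WT BMM the highest were Cd36 at 571 ± 91.7 TPM (SD, n = 6), Stab1 at 450.4 ± 29.9 TPM, Clec4d at 421 ± 28.3 TPM and Mrc1 at 331 ± 23.9 TPM. These values sum all transcripts of a gene. For Stab1 there, the full-length Stab1-201 held 32.7% (147 TPM). Stab1-209 and Stab1-204, annotated as retained introns, held 28.7% and 22.7%. In null BMM, Clec4d led at 764 ± 190 TPM, with Cd36 at 545 ± 94.8 TPM, and Mrc1 was at 60.4 ± 9.05 TPM. WT OB was led by Clec4n at 428 ± 37.3 TPM, while the level in null BMM was 424 ± 61.1 TPM, the reverse of their order in CPM. Cd163 was lowest in all 6 groups, at no more than 8.61 TPM on average. Of 150 pairs of group means, 141 had the same order in CPM and in TPM, and the 9 that differed were 3 of Scarb1, 2 of Stab1 and 1 each of Mrc1, Cd36, Clec7a and Clec4n.

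Which transcript carried a receptor was tested for the leading transcript of 8 receptors in 3 kinds of culture. None of 24 exact two-sided permutation tests passed after Benjamini-Hochberg adjustment, with 5 at an unadjusted p under 0.05. The smallest p the design allows is 0.00216, which adjusts to 0.0519 when 1 of the 24 tests reaches it. A lone test could therefore not pass even with the genotypes fully apart, and the absence of calls does not show that shares were alike. Msr1-201, the shorter of 2 Msr1 transcripts, held 61.4% ± 6.81 (SD, n = 6) of Msr1 TPM in WT BMM and 50.7% ± 2.04 in null BMM (exact permutation p = 0.00216, adjusted 0.0519). Stab1-201 held 32.7% ± 1.66 in WT BMM and 20.3% ± 10.1 in null BMM (exact permutation p = 0.00649, adjusted 0.0779). The leading transcript of Clec4e, Clec4e-203, is annotated as a retained intron, at 35.0% ± 4.67 in WT BMM and 40.4% ± 3.25 in null BMM (exact permutation p = 0.0628, adjusted 0.245). Splits among similar transcripts are estimates, and for Cd163 and Clec7a they scattered by up to 48.5 percentage points (SD) within a group.

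Other genes of these pathways came from 5 lists by family or textbook pathway. Of all genes tested, 27.0% were higher and 25.4% lower in null BMM, 32.4% and 33.1% in null OC, and 15.5% and 16.9% in null OB. Of 16 further scavenger receptors, 8 were tested in BMM and 4 were higher and 4 lower in null, and 5 of 8 were higher and 2 lower in OC. In OB, 3 of 13 were higher and 2 lower. The 3 most abundant were Cd68, a lysosomal macrophage glycoprotein, Lrp1, a receptor for lipoproteins and proteases, and Cxcl16, a scavenger receptor and chemokine. Cxcl16 was, like the 3 Clec4 genes, higher in null BMM (1.66 ± 0.07) and null OC (2.69 ± 0.05) and lower in null OB (−0.38 ± 0.07). Lrp1 was, like Mrc1, lower in null BMM (−1.16 ± 0.11), but it was higher in null OB (0.73 ± 0.08). Cd68 was lower in null in all 3 cultures, by 0.52, 0.27 and 0.55 on the log2 scale (−0.52, −0.27 and −0.55).

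Of 29 further C-type lectins, 14 were tested in BMM, where 8 were higher and 2 lower in null, and 15 in OC, where 6 were higher and 8 lower. In OB, 3 of 15 were higher and 4 lower. The shares of all genes were 27.0% higher and 25.4% lower in BMM, 32.4% and 33.1% in OC, and 15.5% and 16.9% in OB. The median differences of these lectins were 0.53 in BMM and −0.64 in OC, against 1.48 for the 10 receptors in OC. Clec4a1, from the same gene family as Clec4n, was at 22.8 ± 6.48 CPM in WT BMM against 357 ± 26.8 CPM in null BMM, a difference of 3.98 ± 0.18. Unlike the 10 receptors it rose with RANK-L in WT cells, by 1.38 ± 0.14. Clec12a, an inhibitory lectin, also rose there (1.21 ± 0.08) and was lower in null OC by 1.34 on the log2 scale (−1.34 ± 0.08). Clec11a, a secreted growth factor for bone-forming cells, was at 638 ± 83.3 CPM in WT OB and 602 ± 69.8 CPM in null OB, a difference of −0.10 (adjusted p = 0.467 by edgeR).

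Signalling genes downstream of the lectins formed another list. Of 10 genes of the SYK and CARD9 pathway, 2 were higher and 2 lower in null BMM, 7 higher and 1 lower in null OC, and 1 higher and 5 lower in null OB. The shares of all genes were 27.0% higher and 25.4% lower in BMM, 32.4% and 33.1% in OC, and 15.5% and 16.9% in OB. Fcer1g, the adaptor chain that Clec4n, Clec4d and Clec4e use, was at 1606 ± 102 CPM in WT BMM against 1239 ± 186 CPM in null BMM, and so fell (−0.36 ± 0.09) where these lectins rose. In OC it was higher in null (0.95 ± 0.07) and in OB lower (−0.84 ± 0.08), as the lectins were. The phosphatase genes Ptpn6 and Inpp5d, which dampen such signals, differed in BMM by 0.48 ± 0.05 and −0.47 ± 0.06.

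Lipid-handling genes numbered 13, of which 3 were higher and 7 lower in null BMM and 9 higher and 4 lower in null OC. In null OB, 2 were higher and 6 lower. The shares of all genes were 27.0% higher and 25.4% lower in BMM, 32.4% and 33.1% in OC, and 15.5% and 16.9% in OB. Apoe, the lipoprotein that carries cholesterol out of macrophages, was lower in null BMM (−1.38 ± 0.15), higher in null OC (1.40 ± 0.14) and lower in null OB (−0.64 ± 0.08). Plin2, the coat of lipid droplets, was higher in null in BMM (0.61 ± 0.08) and OC (1.75 ± 0.23). Soat1, which esterifies cholesterol, was higher in null OC (1.08 ± 0.07), and its BMM difference of −0.14 was not called (adjusted p = 0.373 by edgeR).

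Among 10 transcription factors of the myeloid lineage, 9 were tested, with 1 higher and 6 lower in null BMM and 6 higher and 3 lower in null OC. In null OB, 2 were higher and 3 lower. The shares of all genes were 27.0% higher and 25.4% lower in BMM, 32.4% and 33.1% in OC, and 15.5% and 16.9% in OB. Spi1, which encodes PU.1, did not differ past the threshold in BMM (0.27 ± 0.15, adjusted p = 0.134 by edgeR) and was lower in null OC (−0.42 ± 0.09). Nfatc1, the factor that RANK-L induces to drive osteoclast formation, was at 750.1 ± 143 CPM in WT OC against 78.2 ± 14.4 CPM in null OC, a difference of −3.31 ± 0.15. Stat6, the mediator of interleukin-4 signals, was lower in null BMM (−0.31 ± 0.07) and higher in null OC (0.50 ± 0.05).

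In the step from BMM to OC in WT cells, 8 of 15 further lectins rose, 2 fell and 5 had no call (median 1.21), beside 30.4% of all genes higher and 30.1% lower. Of 10 further scavenger receptors, 7 fell, 1 rose and 2 had no call (median −1.24). The SYK and CARD9 genes had 2 higher and 6 lower of 10, the lipid genes 3 and 9 of 13, and the transcription factors 3 and 5 of 9. In null cells, where calls over all genes were also fewer (6.78% higher and 6.07% lower), 1 scavenger receptor was higher and 2 lower, 0 lectins higher and 4 lower, 1 SYK and CARD9 gene higher and 1 lower, 2 lipid genes higher and 1 lower, and 1 transcription factor higher and 1 lower. The test of the difference between the OC and BMM genotype effects gave 7 higher and 1 lower for scavenger receptors, 1 and 7 for lectins, 6 and 2 for SYK and CARD9 genes, 9 and 2 for lipid genes and 5 and 3 for transcription factors. Of all genes, 25.3% were higher and 26.1% lower in that test. The same test between OB and BMM gave 3 and 6, 2 and 9, 1 and 4, 7 and 3, and 4 and 3 in that order of lists. In WT OB against WT BMM, where 41.9% of all genes were higher and 35.9% lower, all 10 SYK and CARD9 genes were lower. Of 13 lipid genes 10 were lower and 2 higher, and of 9 transcription factors 7 were lower and 2 higher. Of 13 further scavenger receptors 7 were higher and 6 lower, and of 17 further lectins 9 were higher and 5 lower.

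The genes whose profile was most like each receptor were found by the root mean square difference of centred log2 CPM over 36 libraries, among 12635 genes. For Stab1 they were Tecpr1 (0.20) and Nrp1 (0.25), for Msr1 Rnf128 (0.25) and Pid1 (0.26), and for Mrc1 Slc9a9 (0.28) and Ly86 (0.28). For Cd163 they were the toll-like receptor genes Tlr8 (0.30) and Tlr7 (0.30), and for Clec7a Arhgap15 (0.32) and Dab2 (0.33). Cd36 was most like Cd300e (0.45) and Ccl6 (0.48), and Scarb1 most like Slc35b4 (0.12) and Gga1 (0.14). Clec4n was most like the lectin gene Cd302 (0.32) and Adamtsl5 (0.41), Clec4d most like Mcoln2 (0.29) and Cd52 (0.31), and Clec4e most like the scavenger receptor gene Cd5l (0.50) and Gpr84 (0.58). These are descriptions across libraries that share groups, and the median difference of all genes was 0.62 for Scarb1, 1.00 for Stab1 and 2.13 for Clec4e.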

How the data were processed

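Each of the 36 RNA-seq libraries was assigned to its group and replicate number by its title and genotype label. The deposited table of each library, per the file headers, gives each transcript's length, effective length, estimated count and TPM. The submitters' processing notes name kallisto, DESeq2 and the build GRCh38, although the transcript identifiers are mouse. Per the labels' protocols, libraries were made from total RNA with a low-input kit. Of 88198 transcripts, 97.5% matched GENCODE M21 (GRCm38) by identifier, and the rest held 0.63% to 0.97% of a library's counts and were left out. No check of genotype by the Mir324 transcript was made.

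Estimated counts were summed per gene, rounded to whole numbers, filtered with filterByExpr, scaled by TMM and tested with edgeR 4.0.16 (quasi-likelihood, robust) and limma 3.58.1 in R 4.3.3, adjusting by Benjamini-Hochberg over all genes tested (threshold 0.05). Genotype comparisons used 12 libraries and the others 24. CPM is the TMM-scaled count relative to library size. Transcript shares were tested by exact permutation in scipy 1.17.1 where every library had at least 30 counts and at least 2 transcripts held 5% or more. Scripts were tested on simulated data. The members and lists were chosen with earlier results of these data known. All 10 members are named, with the 3 most abundant genes of each list and the 2 genes most like each member. Alternatives were RLE scaling, other filters, DESeq2 1.42.0, limma-voom, a replicate block, length and GC offsets, all 36 libraries in one fit and leaving out each library.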

Additional observations from a re-analysis of the deposited data

Results flagged for a closer look

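The genotype effect differed between kinds of culture for most receptors by a test of the difference itself (edgeR's quasi-likelihood test with Benjamini-Hochberg adjustment, 24 libraries), as log2 values. For OC and BMM it is the same test as that of the genotypes' difference in the step from BMM to OC above. Null OC held an osteoclast marker sum of 347 to 719 CPM against 28800 to 31300 CPM in WT OC. The part of cell makeup was not tested. Between OC and BMM, the effect was higher in OC by 1.00 for Msr1, 2.58 for Mrc1, 3.32 for Cd163, 2.41 for Stab1, 2.74 for Cd36, 0.52 for Scarb1, 1.65 for Clec7a, 1.73 for Clec4n and 1.92 for Clec4e. Between OB and BMM, the effect was higher in OB by 1.62 for Mrc1, 0.79 for Cd163 (0.41, with no call, under the length and GC offset), 0.93 for Stab1 (0.23, with no call, under the average-length offset), 0.45 for Scarb1 and 1.75 for Clec7a. It was lower in OB for Msr1 (−0.83), Clec4n (−2.47), Clec4d (−1.85) and Clec4e (−3.37). Mrc1, Scarb1 and Clec7a were lower in null BMM and had no call in OC. No single library stood apart from the other 5 of its group in any of 60 checks of a receptor in a group (Dixon's test for 1 outlying value). That test can miss libraries that deviate together, so it says nothing on the split of Mrc1 in null OC. The same holds for the split of null BMM replicates 2, 3 and 4 from the rest in Clec4d, Clec4n, Clec7a, Scarb1, Cd163 and Cd36.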

How the results depend on the processing

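Of 80 receptor results (10 receptors in 8 comparisons), 63 kept their direction and their side of the threshold under every alternative run (21 for a genotype comparison, 33 for a comparison on 24 libraries) and 17 did not. The change from BMM to OC in null cells was the least stable. Its count of receptors past the threshold, 2, was 0 with no filter, 4 with DESeq2, 0 with limma-voom, 0 with the replicate block, 1 with the length and GC offset, and 0 to 4 when 1 library was left out (0 without null BMM replicate 2, 3 or 4 or null OC replicate 2 or 3, 4 without null BMM replicate 5, and 1 without WT OC replicate 1, 3, 5 or 6 or null OC replicate 1 or 4). Its count of all genes, 1628, was 1013 with limma-voom and 810 to 2143 with 1 library left out, being lowest without null BMM replicate 2, 3 or 4 or null OC replicate 3. The receptor calls gained in this step were falls of Clec4d and Clec4e. With DESeq2 they were −0.40 (adjusted p = 0.047 by DESeq2) and −0.28 (adjusted p = 0.0445). Without null BMM replicate 5 they were −0.49 and −0.31. Clec4d was also called lower without null BMM replicate 1 (−0.49) and in the fit of all 36 libraries (−0.41), and Clec4e without WT OC replicate 2 (−0.28). Genes past the threshold for genotype in OB numbered 4420, and 2289 with the length and GC offset. Other calls changed in Stab1 (OB against BMM effect 0.23 with the average-length offset), Cd163 (OB against BMM effect 0.41 with the length and GC offset) and Clec4d (OC against BMM effect 0.71, called with the length and GC offset, and 0.51 without null BMM replicate 2). Cd36 (OB against BMM effect) was −0.57 and called without null OB replicate 6. Msr1 in OB was −0.38 and called without null OB replicate 3.

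Direction turned only in results that had missed the threshold. Scarb1 in OC was −0.14 with the length and GC offset and −0.01 without null OC replicate 2, and in OB 0.07 with the average-length offset. Clec7a in OB was 0.04 with the length and GC offset and −0.17 to 0.04 over left-out libraries (0.04 without null OB replicate 4). From BMM to OC in null cells, Stab1 was −0.45 and −0.06 with the 2 offsets, and Clec7a 0.01 and 0.10, with a range of −0.05 to 0.06 over left-out libraries. Leading transcript shares turned in some fits with 1 library left out, with ranges of −3.14 to 0.241 points for Clec4n in BMM, −17.0 to 5.08 for Cd163 in OC, −0.585 to 1.87 for Scarb1 in OC, −13.4 to 1.03 for Clec7a in OB and −5.47 to 0.29 for Clec4e in OB. The cause of these turns was not tested.

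Same-numbered libraries did not deviate together (correlations −0.28 to 0.24, and in no pair of groups all above 0.1), so the numbers were not taken as pairs. With the replicate block, Msr1 in OB was called (−0.31, adjusted p = 0.0211 by edgeR). Depth limits Cd163 most, with 38 to 93 counts per library in OB.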
